A study of Caenorhabditis elegans with 6 samples.

Results

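The insulin receptor to *daf-16* pathway of *Caenorhabditis elegans* was followed through 8 genes, *daf-2*, *age-1*, *pdk-1*, *akt-1*, *akt-2*, *sgk-1*, *daf-18* and *daf-16*. They were chosen by name as the chain of kinases, the phosphatase and the transcription factor that link the receptor to gene expression, and all 8 were found among the 28641 genes of the expression table. The libraries came from whole worms at the L4 larval stage, synchronized and grown on plates at 20 °C with the *Escherichia coli* strain OP50 as food and no further treatment. The *alh-4(-)* worms carry the *hj221* deletion in *alh-4*, which encodes a membrane-anchored aldehyde dehydrogenase, and are labelled as Bristol N2 apart from it. The WT worms are Bristol N2. There were 3 biological replicates of *alh-4(-)* and 3 of WT, with 1 library each from pooled worms, made with a Smart-seq2 protocol adapted for worms. Expression is given as FPKM (fragments per length of transcript, scaled to the mapped fragments of the library), so that levels are already per length and can be compared between genes. The study used these libraries to ask which genes respond to the loss of *alh-4*.

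In worms, insulin-like peptides bind the receptor DAF-2, a receptor tyrosine kinase. The receptor activates the phosphoinositide 3-kinase AGE-1, which makes the lipid PIP3 at the membrane, and the phosphatase DAF-18 removes it again. PIP3 recruits the kinases PDK-1, AKT-1 and AKT-2, which together with SGK-1 phosphorylate the FOXO transcription factor DAF-16 and keep it out of the nucleus. The pathway is known for its control of dauer formation, lifespan, fat storage and stress resistance. Much of its regulation acts on the proteins, by phosphorylation and movement into the nucleus, and transcript levels do not measure that.

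In *alh-4(-)* worms *daf-18* and *daf-16*, the phosphatase and the transcription factor, had higher FPKM than in WT worms in every library, with ratios of the means of 1.87 and 1.57. The receptor and the 5 kinase genes overlapped between the genotypes. With Benjamini-Hochberg adjustment over the 16225 genes tested with limma, none of the 8 genes passed an adjusted p of 0.05, so the differences described here are values and intervals and not calls. At that threshold 23 of the tested genes, or 0.142%, were called. The thresholds of the study, a fold change over 2 with an unadjusted p under 0.05, were passed by 0 of the 8 genes, beside 1.54% of tested genes that passed them as higher in *alh-4(-)* and 1.37% that passed them as lower. An unadjusted p under 0.05 alone was reached by 2 of the 8, *daf-18* and *daf-16*, both as higher, beside 3.12% of tested genes in that direction and 1.84% as lower. The same 2 genes were the only ones of the 8 without overlap between the genotypes, beside 5.97% of tested genes that were higher in all *alh-4(-)* libraries and 3.25% that were lower.

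The labels were checked with *alh-4* itself, which had 33.7, 24.6 and 35.2 FPKM in *alh-4(-)* worms, against 352, 291 and 336 FPKM in WT worms (log2 fold change -3.36, SE 0.22, adjusted p = 0.00301 from limma). Replicate 1 of each genotype stood apart. It listed 17623 genes above 0 in *alh-4(-)* and 19102 in WT, against 21058 to 22670 in the other 4 libraries, and the first principal component, with 45.1% of the variance, set both apart from the rest. How many reads stand behind a value is unknown. Low FPKM values, multiplied by exon lengths from WBcel235, did not fall on multiples of a single read. That annotation is of another build than the files, so the check could not show whether such steps exist. Over all tested genes the median log2 fold change was 0.07, and 58.0% of genes were above 0. Of 24 markers (of intestine, hypodermis, neurons, body wall muscle, pharynx, germ line, sperm, oocytes and adult cuticle), none was at 0 in all libraries. The 21 markers other than those of oocytes overlapped between the genotypes, though not all were alike in mean. The hypodermis markers *dpy-7* and *elt-3* had log2 fold changes of -1.28 and -0.68. The pharynx markers *myo-1*, *myo-2* and *tnt-4* had -0.77, -0.65 and 0.17. None of these hypodermis and pharynx markers had an unadjusted p under 0.05 (limma).

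**Figure D1:**
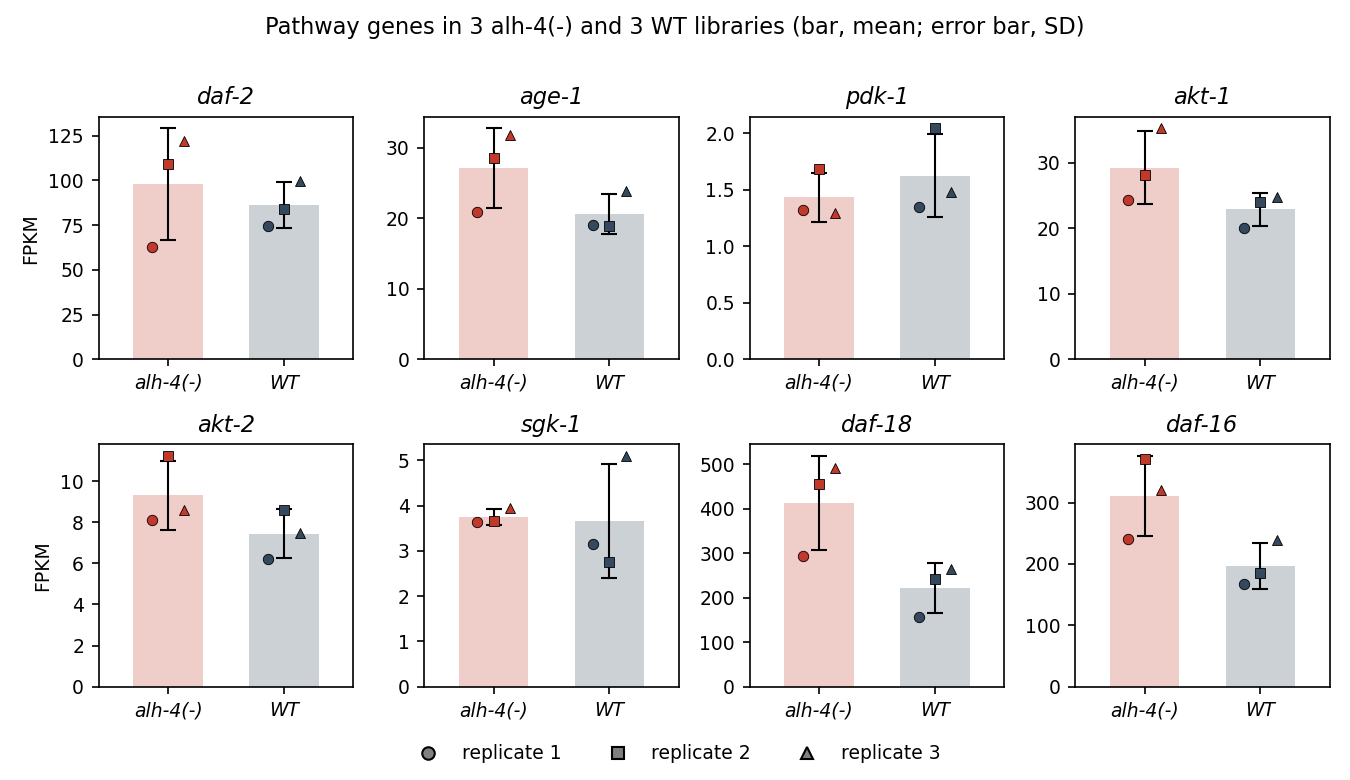
FPKM of the 8 pathway genes (y axis, linear from 0) in *alh-4(-)* and WT worms. Points are libraries with the replicate given by shape, bars are means and error bars are SD of 3 libraries. In the panels of *daf-18* and *daf-16* all *alh-4(-)* points lie above all WT points, with 293 to 491 against 157 to 265 FPKM and 240.2 to 371 against 168 to 239 FPKM, while the points overlap in the other panels.

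The receptor gene *daf-2* had 62.7, 109 and 122 FPKM in *alh-4(-)* worms, against 74.4, 84.1 and 99.8 FPKM in WT worms. The *alh-4(-)* libraries held both the lowest and the highest of the 6 values, and replicate 1 was the lowest of each genotype. The means were 97.9 ± 31.1 and 86.1 ± 12.8 FPKM (SD, n = 3 each). This gave a log2 fold change of 0.14 with a 95% interval from -0.56 to 0.84 (adjusted p = 0.9998, limma). Its direction depended on 1 library, since it was -0.046 without *alh-4(-)* replicate 3.

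The catalytic subunit of phosphoinositide 3-kinase, *age-1*, had 20.9, 28.6 and 31.8 FPKM in *alh-4(-)* worms, against 19.03, 18.9 and 23.9 FPKM in WT worms. Only *alh-4(-)* replicate 1 fell below the highest WT library. The means were 27.1 ± 5.603 and 20.6 ± 2.85 FPKM (SD, n = 3 each), and the log2 fold change was 0.37 (95% interval -0.25 to 0.99, adjusted p = 0.9998, limma). With array quality weights, which let libraries count unequally, it was 0.54 with an unadjusted p of 0.0339. On the opposite strand B0334.10 shares exon sequence with *age-1* in the WBcel235 annotation, and the library protocol does not mark strand, so reads from the shared stretch cannot be assigned. B0334.10 had 10.3, 13.6 and 17.2 FPKM in *alh-4(-)* worms and 8.31, 21.7 and 16.8 FPKM in WT worms.

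The gene *pdk-1*, whose product phosphorylates AKT-1, AKT-2 and SGK-1, had the lowest level of the 8. It had 1.32, 1.69 and 1.29 FPKM in *alh-4(-)* worms, against 1.35, 2.04 and 1.48 FPKM in WT worms, and the genotypes overlapped. It was the one member with a negative log2 fold change, -0.10, with a 95% interval from -0.93 to 0.72 (adjusted p = 0.9998, limma), and the value was 0.0082 without WT replicate 2. At this level the log2(FPKM + 1) scale understates a difference. The exons of *pdk-1* overlap those of F21E9.2 on the other strand. F21E9.2 was the more abundant in every library, with 4.42, 3.78 and 6.68 FPKM in *alh-4(-)* worms and 10.3, 26.5 and 4.82 FPKM in WT worms, so the *pdk-1* values are uncertain.

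Of the 2 Akt kinase genes, *akt-1* had 24.3, 28.2 and 35.2 FPKM in *alh-4(-)* worms, against 20.0, 23.97 and 24.7 FPKM in WT worms. The lowest *alh-4(-)* library lay just below the highest WT library, and the other 2 lay above all WT libraries. The means were 29.2 ± 5.54 and 22.9 ± 2.53 FPKM (SD, n = 3 each), with a log2 fold change of 0.33 (95% interval -0.26 to 0.91, adjusted p = 0.9998, limma). It was 0.19 without *alh-4(-)* replicate 3. The exons of *akt-1* overlap those of *rop-1*, which encodes the Ro RNA-binding protein on the other strand and had 134, 146 and 180 FPKM in *alh-4(-)* worms and 150, 118 and 160 FPKM in WT worms. As *rop-1* was the more abundant in every library, the *akt-1* values are uncertain too.

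The second Akt gene, *akt-2*, had 8.09, 11.2 and 8.60 FPKM in *alh-4(-)* worms, against 6.22, 8.62 and 7.48 FPKM in WT worms. The genotypes met at WT replicate 2, which exceeded 2 of the *alh-4(-)* libraries. For *akt-2* the log2 fold change was 0.29 (95% interval -0.39 to 0.96, adjusted p = 0.9998, limma), and it was 0.16 without *alh-4(-)* replicate 2 and 0.18 without WT replicate 1. The kinase gene *sgk-1*, named for its serum- and glucocorticoid-inducible relatives in mammals, had 3.63, 3.65 and 3.95 FPKM in *alh-4(-)* worms, against 3.15, 2.74 and 5.10 FPKM in WT worms. Its *alh-4(-)* values were the closest together of any member, with a coefficient of variation of 4.74% against 34.3% in WT, and lay inside the WT range. The log2 fold change of *sgk-1* was 0.06 (95% interval -0.73 to 0.85, adjusted p = 0.9998, limma) and changed sign to -0.0043 with upper quartile scaling, to -0.012 without WT replicate 1 and to -0.087 without WT replicate 2.

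The lipid phosphatase gene *daf-18* had 293, 455 and 491 FPKM in *alh-4(-)* worms, against 157, 242 and 265 FPKM in WT worms. Every *alh-4(-)* library was above every WT library, and replicate 1 was the lowest of each genotype. The means were 413 ± 106 and 221 ± 56.6 FPKM (SD, n = 3 each). The log2 fold change was 0.90 with an SE of 0.29 and a 95% interval from 0.21 to 1.59, a fold of 1.15 to 3.01, and 3.69% of tested genes had a higher log2 fold change. The adjusted p was 0.764 and the unadjusted p 0.0180 (limma). The unadjusted p passed 0.05 in 12 of 15 alternative settings, and it was 0.0609, 0.0666 and 0.0593 without *alh-4(-)* replicate 2, without *alh-4(-)* replicate 3 and without WT replicate 1. The log2 fold change ran from 0.67 to 1.13 over the 15 settings, and the adjusted p from 0.106 to 1. Without both replicate 1 libraries it was 0.90 (adjusted p = 0.369, limma). In WBcel235 *daf-18* has 1 transcript and its exons overlap no other gene.

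The FOXO gene *daf-16* had 240.2, 371 and 321 FPKM in *alh-4(-)* worms, against 168, 185 and 239 FPKM in WT worms. The groups did not overlap but met closely, as *alh-4(-)* replicate 1 and WT replicate 3 differed by less than 2 FPKM. The means were 310.4 ± 65.8 and 197 ± 37.3 FPKM (SD, n = 3 each). The log2 fold change was 0.65 with an SE of 0.24 and a 95% interval from 0.07 to 1.22, a fold of 1.05 to 2.33, and 7.17% of tested genes had a higher log2 fold change. The adjusted p was 0.910 and the unadjusted p 0.0321 (limma). The log2 fold change of *daf-16* ran from 0.51 to 0.82 over the 15 alternative settings, with an unadjusted p under 0.05 in 10 of them. The unadjusted p was lost, at values from 0.0764 to 0.120, without *alh-4(-)* replicate 2, *alh-4(-)* replicate 3, WT replicate 1 or WT replicate 2, and at 0.0563 without a trend in the variance. Without both replicate 1 libraries the log2 fold change was 0.71 (adjusted p = 0.489, limma). The annotation lists 11 transcripts of *daf-16*, some of which start at different promoters, and the values per gene do not separate them. The exons of *daf-16* overlap only the noncoding H36N01.5, which had at most 0.684 FPKM in any library.

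The markers of oocytes, like *daf-18* and *daf-16*, had higher values in *alh-4(-)* worms. Their summed level, most of it from *cbd-1*, was 4494 to 5324 FPKM in *alh-4(-)* worms, against 2886 to 3816 FPKM in WT worms. All 3 were higher in every *alh-4(-)* library than in any WT library, as were 5.97% of all tested genes. The oocyte maturation gene *oma-1* had 28.2, 28.4 and 33.4 FPKM in *alh-4(-)* worms, against 14.4, 15.3 and 18.8 FPKM in WT worms. Its relative *oma-2* had 19.3, 21.1 and 20.5 FPKM in *alh-4(-)* worms, against 7.97, 10.1 and 9.67 FPKM in WT worms. The eggshell gene *cbd-1* had 4446, 4991 and 5270 FPKM in *alh-4(-)* worms, against 2863, 3140 and 3788 FPKM in WT worms. The log2 fold changes of the 3 genes were 0.86, 1.06 and 0.59, and none passed an adjusted p of 0.05 (0.575, 0.422 and 0.727, limma). The general germ line markers *glh-1* and *pgl-1* summed to 10365 to 12629 FPKM in *alh-4(-)* worms, against 8740 to 14425 FPKM in WT worms. In RNA from whole worms, fewer or more cells of a type cannot be told apart from less or more RNA per cell. How much of the RNA of *daf-18* and *daf-16* came from cells that express the oocyte markers was not tested.

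**Figure D2:**
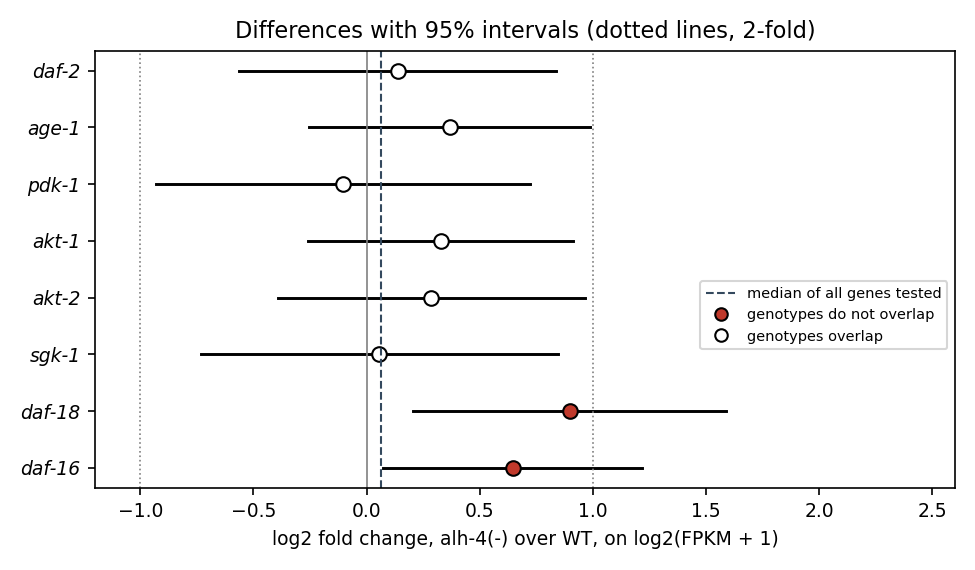
Log2 fold change of *alh-4(-)* over WT on the log2(FPKM + 1) scale (x axis) for the 8 genes, in pathway order from top to bottom. Points are limma estimates, horizontal lines 95% intervals, the dashed line the median of all tested genes (0.07) and dotted lines 2-fold. The filled points of *daf-18* (0.90) and *daf-16* (0.65) mark genes whose genotypes do not overlap, and their intervals alone lie above 0.

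Among themselves the 8 genes had a median log2 fold change of 0.31, with 7 above 0 and 1 below. Over all tested genes the median was 0.07, and 58.0% were above 0. Their differences were within 1 on the log2 scale, and the intervals of the 6 other genes reached no higher than 0.99. The levels spanned a wide range and had the same order in both genotypes. In *alh-4(-)* worms the means were 413 FPKM for *daf-18*, 310.4 for *daf-16*, 97.9 for *daf-2*, 29.2 for *akt-1*, 27.1 for *age-1*, 9.31 for *akt-2*, 3.74 for *sgk-1* and 1.43 for *pdk-1*. In WT worms they were 221, 197, 86.1, 22.9, 20.6, 7.44, 3.67 and 1.62 FPKM in the same order of genes. The receptor, the phosphatase and the transcription factor thus had higher transcript levels than any of the kinases in every library. *daf-18* stood above *daf-16* in 3 of 3 *alh-4(-)* libraries and 2 of 3 WT libraries, and *akt-1* above *age-1* in 2 of 3 *alh-4(-)* libraries and 3 of 3 WT libraries, so that the ranges of these neighbours overlapped. All other neighbours in the order had ranges that lay apart in both genotypes. Over the 6 libraries 9.12% of tested genes had a higher mean level than *daf-18* and 11.1% a higher one than *daf-16*, whereas 93.4% had a higher one than *pdk-1*.

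Ratios of 2 genes within a library do not depend on how libraries are scaled, and 4 were compared. The FPKM of *age-1* over that of *daf-18*, the kinase and the phosphatase that act on the same lipid, gave log2 ratios of -3.81, -3.99 and -3.95 in *alh-4(-)* worms, against -3.05, -3.68 and -3.47 in WT worms. Every *alh-4(-)* ratio was below every WT ratio, by 0.52 on average, and by 0.34 without WT replicate 1. The FPKM of *daf-16* over that of *daf-2*, the ends of the pathway, gave log2 ratios of 1.94, 1.76 and 1.396 in *alh-4(-)* worms, against 1.17, 1.14 and 1.26 in WT worms. Here every *alh-4(-)* ratio was above every WT ratio, by 0.51 on average, so that *daf-16* stood at 3.83, 3.39 and 2.63 times the level of *daf-2* in *alh-4(-)* worms and at 2.25, 2.20 and 2.40 times in WT worms. For each of these 2 ratios the two-sided exact permutation test gave p = 0.1, the smallest that 3 libraries against 3 allow, and 0.2 after Benjamini-Hochberg adjustment over the 4 ratios. The test thus could not reach 0.05 for any of them.

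The other 2 ratios overlapped between the genotypes. *akt-1* over *akt-2* gave log2 ratios of 1.59, 1.32 and 2.03 in *alh-4(-)* worms, against 1.69, 1.48 and 1.73 in WT worms, a difference of 0.02 (exact permutation p = 1) that was -0.17 without *alh-4(-)* replicate 3 and 0.18 without *alh-4(-)* replicate 2. *sgk-1* over *akt-1* gave -2.74, -2.95 and -3.16 in *alh-4(-)* worms, against -2.67, -3.13 and -2.28 in WT worms, a difference of -0.26 (exact permutation p = 0.4, adjusted p = 0.533). Without WT replicate 3 this difference was -0.053, without *alh-4(-)* replicate 3 it was -0.15, and without WT replicate 2 it was -0.48. *akt-1* had the higher value of the 2 Akt genes in every library, at 2.51 to 4.10 times *akt-2* in *alh-4(-)* worms and 2.78 to 3.31 times in WT worms, with the limit that the reads of *akt-1* may include some of *rop-1*.

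**Figure D3:**
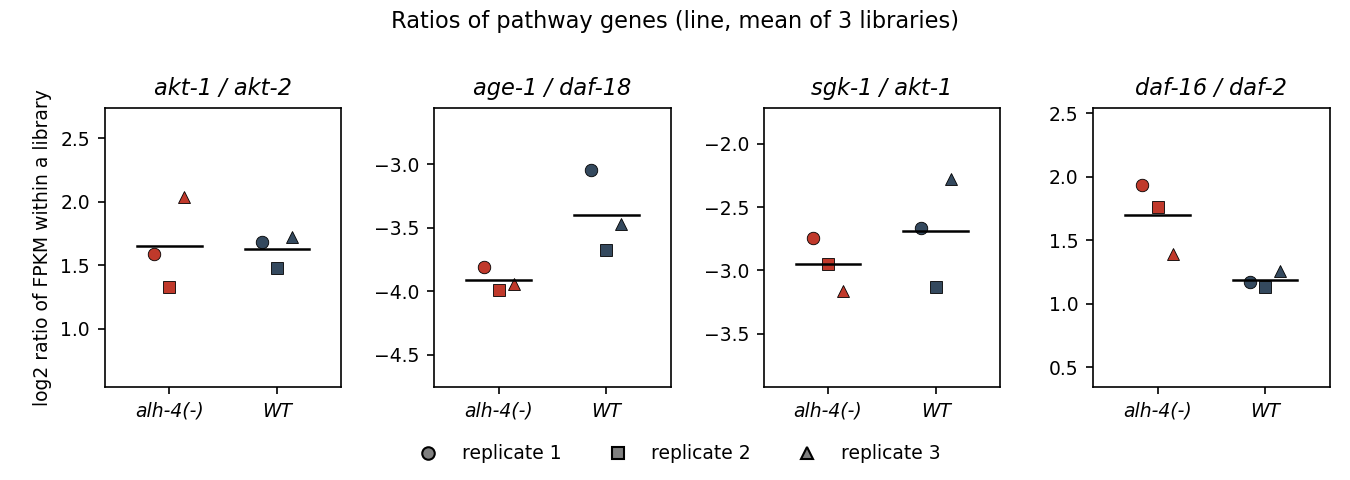
Log2 ratio of the FPKM of 2 pathway genes within each library (y axis) in *alh-4(-)* and WT worms. Points are libraries with the replicate given by shape and lines are means of 3 libraries. The ratio of *age-1* to *daf-18* is lower in all *alh-4(-)* libraries (-3.99 to -3.81) than in all WT libraries (-3.68 to -3.05), and that of *daf-16* to *daf-2* is higher (1.396 to 1.94 against 1.14 to 1.26).

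The values of several members shared a pattern over the libraries. Replicate 1 was the lowest *alh-4(-)* library for 7 of the 8 genes, beside 10595 of the 16225 tested genes. It was the lowest WT library for 6 of the 8, beside 7557 of the tested genes. For 5 of the 8 it was the lowest in both, beside 38.0% of all tested genes. On the log2(FPKM + 1) scale, over the 6 libraries, *daf-16* and *daf-18* had a Pearson correlation of 0.949, *daf-18* and *akt-1* of 0.936, *daf-16* and *age-1* of 0.920, and *daf-2* and *daf-16* of 0.675. Correlations with the other members ran from -0.462 to 0.441 for *pdk-1*, from -0.462 to 0.526 for *sgk-1* and from -0.0117 to 0.812 for *akt-2*. These are descriptions over 6 points that share libraries and genotype.

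Over the same 6 libraries the genes most like *daf-2* were *rbbp-5*, which encodes a subunit of histone methyltransferase complexes (r = 0.9997), the COPII coat gene *sec-24.2* (r = 0.996) and the Polycomb-type gene *mes-3* (r = 0.996). *rbbp-5* had 3.57, 7.60 and 8.72 FPKM in *alh-4(-)* worms, against 4.47, 5.32 and 6.79 FPKM in WT worms. The genes most like *daf-16* were K11E4.2 (r = 0.997), T02E1.6 (r = 0.995) and the UDP-glucuronosyltransferase gene *ugt-33* (r = 0.994). K11E4.2 had 209, 355 and 291 FPKM in *alh-4(-)* worms, against 142, 148 and 204 FPKM in WT worms. *ugt-33* had 13.0, 23.8 and 19.6 FPKM in *alh-4(-)* worms, against 7.17, 7.43 and 11.6 FPKM in WT worms. The 3 genes like *daf-16* also had no overlap between the genotypes, which follows largely from picking them by correlation over these same libraries. None of the 3 had an adjusted p under 0.05. These are the highest of 16225 correlations for each gene and were not tested.

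A list of 29 further genes of the pathway held adaptors and the regulatory subunit of phosphoinositide 3-kinase, subunits of the phosphatase PP2A, TOR kinase and its partners, enhancers of *akt-1*, proteins that bind or modify DAF-16, and transcription factors that share its targets. Of these, 25 passed the filter of a mean of 1 FPKM, and 0 had an adjusted p under 0.05 or passed the study's thresholds. The genes below the filter were *shc-1*, *eak-3*, *eak-4* and *sdf-9*, of which *eak-3* was listed at 0 in every library. The median log2 fold change of the 25 was 0.16, with 18 above 0 and 7 below. Over all tested genes the median was 0.07, and 58.0% of genes were above 0. Without *alh-4(-)* replicate 1 the median of the 25 was 0.38, beside 0.24 over all tested genes. Without WT replicate 3 it was 0.28, beside 0.13 over all tested genes. By role, 7 of 9 DAF-16 partners and modifiers were above 0, from -0.14 to 0.38, as were 3 of 4 genes of TOR kinase and its partners and 3 of 3 PP2A subunits. Both genes whose products bind phosphorylated DAF-16 in the cytoplasm, *par-5* and *ftt-2*, were below 0, at -0.12 and -0.07. None of these had an unadjusted p under 0.05.

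The one gene of this list with an unadjusted p under 0.05 in the fit to all libraries was *pqm-1*, which encodes a zinc finger transcription factor that binds the DAF-16-associated element. It had 92.2, 122 and 118 FPKM in *alh-4(-)* worms, against 53.3, 54.1 and 59.6 FPKM in WT worms. The genotypes lay well apart, with a log2 fold change of 0.97 (SE 0.21, 95% interval 0.48 to 1.46). The adjusted p was 0.339 from limma and ran from 0.0436 to 0.9998 over 15 alternative settings, passing 0.05 in 1 of them, array quality weights. *rict-1*, which encodes the Rictor subunit of the TOR complex that acts on SGK-1, had 19.9, 21.1 and 22.2 FPKM in *alh-4(-)* worms, against 15.6, 12.28 and 19.3 FPKM in WT worms. Its groups did not overlap, beside the shares of tested genes given above. The log2 fold change of *rict-1* was 0.42 (95% interval -0.20 to 1.04, adjusted p = 0.9998, limma). The lowest log2 fold change of the list, -0.80, belonged to *ist-1*, the insulin receptor substrate gene, with 3.74, 22.2 and 26.5 FPKM in *alh-4(-)* worms, against 22.4, 23.4 and 26.7 FPKM in WT worms. Only *alh-4(-)* replicate 1 was low, and without it the log2 fold change was 0.01.

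Genes known to be raised by DAF-16 in *daf-2* mutants, such as those for superoxide dismutase, catalases, metallothioneins, lysozymes and small heat shock proteins, were taken as a second list. Of 25 such genes with a row, 17 passed the filter, and the median log2 fold change of these was -0.09, with 7 above 0 and 10 below. It had the other sign without WT replicate 2 (0.048) and without WT replicate 3 (0.0042), each with 9 above 0 and 8 below. No gene had an adjusted p under 0.05. The most used of these reporters, the mitochondrial superoxide dismutase gene *sod-3*, was below the filter, with 0.677, 0.842 and 1.07 FPKM in *alh-4(-)* worms, against 0.640, 0.826 and 0.262 FPKM in WT worms. The groups overlapped, and the metallothionein gene *mtl-1* had at most 0.676 FPKM in any library.

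An unadjusted p under 0.05 was found for 2 genes of this list as higher and 1 as lower. The small heat shock protein gene *hsp-12.3* had 83.1, 173 and 213 FPKM in *alh-4(-)* worms, against 50.0015, 70.5 and 57.4 FPKM in WT worms (log2 fold change 1.29, SE 0.37, adjusted p = 0.596, limma). The peroxisomal catalase gene *ctl-2* had 227, 236 and 277 FPKM in *alh-4(-)* worms, against 147, 86.5 and 146 FPKM in WT worms (log2 fold change 0.99, SE 0.26, adjusted p = 0.504, limma). The gene *dod-3* was lower, with 2.82, 3.62 and 8.16 FPKM in *alh-4(-)* worms, against 12.4, 9.90 and 81.1 FPKM in WT worms (log2 fold change -2.07, SE 0.79, adjusted p = 0.911, limma). All 3 were free of overlap and *hsp-12.3* and *dod-3* passed the study's thresholds, beside the shares of tested genes given above. Without WT replicate 3 the log2 fold change of *dod-3* was -1.15, and its unadjusted p passed 0.05 neither then nor without *alh-4(-)* replicate 1 or 2.

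Of the same list, the catalase gene *ctl-1* had 1.97, 2.32 and 1.70 FPKM in *alh-4(-)* worms, against 0.858, 0.549 and 0.638 FPKM in WT worms. Its mean was below 1 FPKM in WT worms, so it passed the filter only through its *alh-4(-)* libraries. The transhydrogenase gene *nnt-1* had 32.9, 43.5 and 34.9 FPKM in *alh-4(-)* worms, against 31.5, 30.8 and 30.9 FPKM in WT worms. Neither gene overlapped between the genotypes, beside 5.97% of tested genes that were higher without overlap. The log2 fold changes of *ctl-1* and *nnt-1* were 0.83 and 0.24 (unadjusted p = 0.0507 and 0.318, adjusted p = 0.9998 for both, limma). The catalase genes lie side by side and are alike in sequence, so reads may have been shared between them.

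Genes known to be lowered by DAF-16, the third list, held 10 genes, of which 9 passed the filter and *ins-7*, an insulin-like peptide gene, did not. None had an adjusted p under 0.05. The median log2 fold change was -0.999, with 4 genes above 0 and 5 below, and it was -0.68 without *alh-4(-)* replicate 1, -0.63 without WT replicate 3 and -0.43 without the filter on low values. The thresholds of the study were passed by 3 genes as lower (*vit-5*, *dod-17* and *dod-24*) and by 1 as higher (*dod-21*), beside 1.37% of tested genes as lower and 1.54% as higher. The yolk protein gene *vit-5* had 7.90, 5.85 and 3.12 FPKM in *alh-4(-)* worms, against 196, 101 and 40.5 FPKM in WT worms. Its log2 fold change was -3.90 (SE 0.58, adjusted p = 0.0905, limma), and the adjusted p ran from 0.0151 to 0.380 over 15 alternative settings, passing 0.05 with array quality weights and with a replicate block (0.0436). Several yolk protein genes are close to identical, so the split of reads between *vit-5* and its copies is uncertain. The related *vit-2* had 277, 245 and 185 FPKM in *alh-4(-)* worms, against 659, 456 and 337 FPKM in WT worms (log2 fold change -0.999, SE 0.29, adjusted p = 0.626, limma).

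The *dod* genes, named as downstream of DAF-16, differed in both directions. *dod-24* had 22.4, 85.6 and 113 FPKM in *alh-4(-)* worms, against 170, 295 and 429 FPKM in WT worms (log2 fold change -2.19, adjusted p = 0.596, limma). *dod-17* had 5.39, 15.3 and 17.3 FPKM in *alh-4(-)* worms, against 20.7, 31.1 and 45.2 FPKM in WT worms (log2 fold change -1.36, adjusted p = 0.866, limma). For *dod-17* the value was -0.88 without *alh-4(-)* replicate 1, and the unadjusted p was 0.0659 without WT replicate 2, 0.0928 without WT replicate 3 and 0.0513 without the filter on low values. In the same replicates, *dod-21* was higher, with 5.49, 1.70 and 8.73 FPKM in *alh-4(-)* worms, while WT worms were listed at 0 in 2 libraries and had 0.839 FPKM in the third. Its log2 fold change depended on the pseudocount, with 2.18 at 1 and 4.40 at 0.1. Both *dod-21* and *dod-20* passed the filter only through their *alh-4(-)* libraries. Smaller differences without overlap were those of *dod-19* and *dod-23*, beside the shares of tested genes without overlap given above. *dod-19* had 3215, 3205 and 3276 FPKM in *alh-4(-)* worms, against 3091, 2107 and 3128 FPKM in WT worms, and *dod-23* had 18.2, 17.8 and 21.4 FPKM in *alh-4(-)* worms, against 10.0, 15.2 and 15.5 FPKM in WT worms. Without WT replicate 2 the log2 fold change of *dod-19* was 0.056 in place of 0.24, and without WT replicate 1 that of *dod-23* was 0.29 in place of 0.48. Reads of several genes on these lists, *vit-2*, *ctl-2*, *nnt-1* and *rict-1* among them, also fall on exons that another gene shares.

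**Figure D4:**
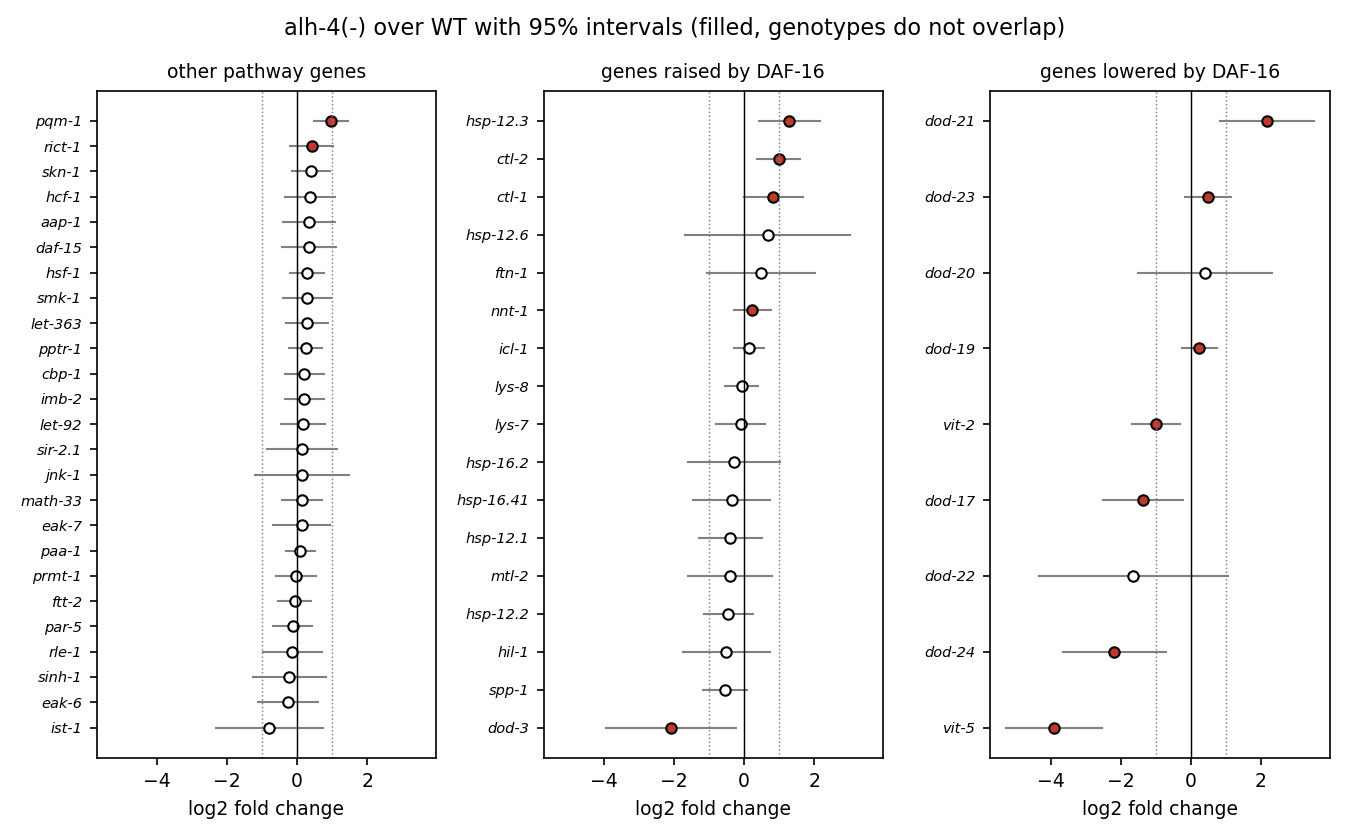
Log2 fold change of *alh-4(-)* over WT on the log2(FPKM + 1) scale (x axis) for the 25 further pathway genes, 17 genes raised by DAF-16 and 9 genes lowered by DAF-16 that passed the filter, ordered by value. Points are limma estimates, lines 95% intervals, dotted lines 2-fold and filled points genes whose genotypes do not overlap. Pathway genes gather near 0 (median 0.16), while the genes lowered by DAF-16 run from -3.90 for *vit-5* to 2.18 for *dod-21*.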

How the data were processed

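RNA was sequenced from 3 *alh-4(-)* and 3 WT populations of L4 worms on an Illumina NextSeq 500. The authors aligned the reads to the ce10 assembly, took gene models from the Illumina iGenome set, and deposited FPKM values for 28641 genes in each library. The submitters' processing notes list bcl2fastq 2.19, Trimmomatic 0.36, HISAT2 2.1.0, SAMtools 1.3 and StringTie 1.3.3, without saying which step each served. FPKM is divided by length and by mapped fragments, so it is relative within a library. The deposited FPKM values gave no read counts or depth, so no counting interval is printed, and the negative binomial test that the study names was not run.

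Each library was assigned by its label. The log2(FPKM + 1) of 16225 genes, those averaging at least 1 FPKM, was tested, two-sided, with limma 3.58.1 in R 4.3.3 (eBayes with a trend) and adjusted by the Benjamini-Hochberg method. This scale shrinks the fold change of genes with low values. Ratios were compared with exact permutation tests in Python 3.11.15 with SciPy 1.17.1, NumPy 2.4.6 and pandas 2.3.3, and figures drawn with Matplotlib 3.10.9. The fit was tested on simulated data with the residual spread of these genes. An adjusted p under 0.05 was reached by 3 of 50 genes with a true log2 change of 1 and 18 of 50 with 2. It was reached by 38 of 50 genes with a change of 3, 42 of 50 with 4, and 7 of 16025 unchanged genes. The alternatives were upper quartile scaling, quantile normalization, array quality weights, a replicate block, a pseudocount of 0.1, a minimum mean of 10 FPKM or none, eBayes without a trend, and libraries left out singly or, for replicate 1, in both genotypes.

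The members and lists were chosen with earlier results of these data known. Genes named are the 8 members, *alh-4*, genes of each list past a threshold, without overlap or with the most extreme value, and the 3 genes most correlated with *daf-2* and with *daf-16*. Others (*sod-3*, *mtl-1*, *par-5*, *ftt-2*, genes below the filter and genes sharing exons) were named after their values were seen. The name *gei-7* had no row of its own and is an older name of *icl-1*. Exon overlaps come from WBcel235, another build than that of the files, so no coordinates are given.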

Additional observations from a re-analysis of the deposited data

How the results depend on the processing

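No member had an adjusted p under 0.05 from limma in any setting. Members past the study's thresholds numbered 0, but 1, *daf-18*, with array quality weights, and 0 to 1 when a library was left out. Those weights put 626 genes past the thresholds as higher, in place of 250, and 91 genes under an adjusted p of 0.05, in place of 23, so each call under them below stands against that background. Members with an unadjusted p under 0.05 numbered 2, but 3, *age-1* added, with array quality weights, where 1804 genes in place of 507 were so as higher, 1 without a trend in the variance, and 0 to 2 when a library was left out. Over the leave-one-out fits the log2 fold change of *daf-2* ran from -0.046 to 0.43, of *pdk-1* from -0.18 to 0.0082 and of *sgk-1* from -0.087 to 0.27, and that of *sgk-1* was -0.0043 with upper quartile scaling. The same range was 0.19 to 0.45 for *akt-1* and 0.16 to 0.39 for *akt-2*. The differences in log2 ratio ran from -0.17 to 0.18 for *akt-1* to *akt-2*, from -0.66 to -0.34 for *age-1* to *daf-18*, from -0.48 to -0.053 for *sgk-1* to *akt-1* and from 0.39 to 0.66 for *daf-16* to *daf-2*. Of the further pathway genes, 1 (*pqm-1*) had an adjusted p under 0.05 with array quality weights, 1 passed the study's thresholds with those weights and 1 without both replicate 1 libraries, and 0 to 1 when a library was left out. Those with an unadjusted p under 0.05 numbered 1, but 8 with array quality weights, 4 without *alh-4(-)* replicate 1 and 2 without both replicate 1 libraries, all as higher. Over all genes, those so as higher went from 507 to 1804, 1418 and 1075 in the same settings. Of the genes raised by DAF-16, 1 (*hsp-12.3*, adjusted p = 0.0420) was called with array quality weights, and 1 in place of 2 passed the study's thresholds without the filter, and 5 in place of 3 had an unadjusted p under 0.05 with array quality weights. Of those lowered by DAF-16, 1 (*vit-5*) was called with array quality weights and 1 with the replicate block. Same-numbered libraries had correlations of deviations of 0.31, 0.28 and 0.00. *alh-4(-)* replicates 1 and 2 correlated best with the WT library of their own number, but replicate 3 did not. The numbers were therefore not taken as pairs in the main fit. With the replicate block, *daf-18* had an SE of 0.13, an unadjusted p of 0.00122 and an adjusted p of 0.211 (limma). For *daf-16* these were 0.18, 0.0154 and 0.452. Over all genes, those with an unadjusted p under 0.05 as higher numbered 962 with the block, in place of 507. Upper quartile scaling changed the genes with an unadjusted p under 0.05 to 469 higher and 441 lower, beside 507 and 299. Array quality weights put the median log2 fold change over all genes at 0.20 in place of 0.07. The causes of these changes were not tested. The unknown depth and 3 libraries per genotype limit what can be seen. On the log2(FPKM + 1) scale, the intervals of the 6 members other than *daf-18* and *daf-16* reach from a fold of 0.525 to one of 1.98. With a pseudocount of 0.1 the log2 interval of *pdk-1* ran from -1.54 to 1.22. Those of *sgk-1*, *akt-2* and *age-1* then reached 1.06, 1.04 and 1.01, so differences of 2-fold are not excluded for these genes.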
